A study of Homo sapiens with 12 samples.

Results

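The genes for the protein components of the cytosolic ribosome were described across 12 RNA-seq libraries of A549, an established human lung adenocarcinoma cell line. Members were the rows whose symbol follows the RPL and RPS naming pattern (a number with an optional A, X or L, or P0 to P2) together with RPSA. The rule found 81 genes, 48 of the large subunit and 33 of the small subunit, among 24459 genes in the table of control and TGF-β1 libraries and 24745 genes in the table of TGF-β1 libraries with and without acetate. All 81 were in both tables. GENCODE 29 annotates 80 of them as protein coding and RPS10L as a processed pseudogene, and the symbol pattern keeps the genes of mitochondrial ribosomal proteins out.

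The cytosolic ribosome joins a small subunit, which reads the messenger RNA, to a large subunit, which forms the peptide bond. Its proteins are needed in matched amounts, and their messenger RNAs are among the most abundant of a growing cell. Most of these messages begin with a cytosine followed by a run of pyrimidines, the 5′ terminal oligopyrimidine (TOP) tract, through which the kinase complex mTORC1 and the RNA-binding protein LARP1 control their translation and stability.

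There were 3 groups of 4 libraries: control cells, cells given TGF-β1 at 10 ng/mL, and cells given the same TGF-β1 with 40 mM sodium acetate, each for 2 days. TGF-β1 is the cytokine commonly used to turn epithelial cells towards a mesenchymal state. All cells grew in serum-containing medium at passages 5 to 10, and no group received acetate alone or a matched sodium salt, so that acetate, sodium and osmolarity cannot be told apart. Library codes matched no sample label, so groups were taken from the tables that hold each code and from the names of those tables: control is S1 to S4, TGF-β1 alone is S15 to S18, and TGF-β1 with acetate is S22 to S25. The labels do not say that libraries came from separate cultures, so p-values measure the spread between libraries, which may be technical.

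Gene counts summed to between 34698057 and 53936023 per library. Small RNAs of the signal recognition particle, 7SK and related kinds took 6.22% to 10.1% of them. The small RNAs RN7SL1, RN7SK, RMRP and RPPH1 each have a duplicate row with equal or nearly equal counts. Both rows entered these sums, so the small RNA share counts them more than once and is too high. A count of 3 corresponds to between 0.0556 and 0.0865 counts per 1000000 (CPM). Libraries of 1 group differed from each other by more than counting noise, with a chi-square per degree of freedom of 3.71 to 16.3 over the 18 pairs. The epithelial keratin KRT8 stood between 2070 and 2734 CPM in every library, and 9 of the 16 markers listed for other cell types or for alveolar type 2 cells, among them PTPRC, PECAM1 and SFTPC, were not in both tables. CDH1, the epithelial cadherin, ranged from 55.6 to 62.3 CPM in control, 0.882 to 1.72 CPM with TGF-β1 and 42.5 to 48.7 CPM with TGF-β1 plus acetate. The 3 fibroblast markers together ranged from 0.594 to 0.816, 5.71 to 6.65 and 17.6 to 20.4 CPM in the same order, mostly LUM, and the 2 immune markers found in both tables, mostly the macrophage and lysosome gene CD68, from 9.94 to 12.7, 13.5 to 16.6 and 21.9 to 23.6 CPM. The part of these changes in the results on ribosomal proteins was not tested.

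Transcription start sequences came from the RefSeq promoter table on GRCh38.p14, which matched 63 of the 81 members. Of these, 46 (73%) start with a C and at least 4 more pyrimidines, against 5.14% of 27305 genes with an entry. A C followed by at least 7 more pyrimidines opened 26 members (41.3%), against 1.85% of all. The sequences below are shown because they belong to the members that moved most or that served as reference points. Each covers 30 bases before the annotated start and 20 bases from it, 5′ to 3′ on the gene's strand, and capitals mark the uninterrupted pyrimidine tract that begins at the start. The first 4 rose most with TGF-β1 among members with an entry and a tract, at chr19:55385902-55385951 (plus strand), chr3:101686699-101686748 (minus), chr11:8682762-8682811 (plus) and chr9:133348188-133348237 (plus).
RPL28: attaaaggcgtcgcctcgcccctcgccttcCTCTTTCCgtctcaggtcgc
RPL24: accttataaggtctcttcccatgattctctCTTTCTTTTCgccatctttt
RPL27A: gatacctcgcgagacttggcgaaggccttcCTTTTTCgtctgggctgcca
RPL7A: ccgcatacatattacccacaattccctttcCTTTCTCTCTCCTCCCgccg

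RPS12, RPL10 and RPL41 are shown because they were among the 5 that fell most when acetate was added, at chr6:132814539-132814588 (plus), chrX:154398347-154398396 (plus) and chr12:56116603-56116652 (plus).
RPS12: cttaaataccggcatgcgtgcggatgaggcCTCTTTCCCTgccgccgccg
RPL10: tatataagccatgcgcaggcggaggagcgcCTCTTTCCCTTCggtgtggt
RPL41: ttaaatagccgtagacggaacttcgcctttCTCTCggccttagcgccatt

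RPS6, RPLP0 and RPS27 are shown as widely studied members with a tract, at chr9:19380217-19380266 (minus), chr12:120201092-120201141 (minus) and chr1:153990732-153990781 (plus).
RPS6: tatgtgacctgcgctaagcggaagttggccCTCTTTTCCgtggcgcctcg
RPLP0: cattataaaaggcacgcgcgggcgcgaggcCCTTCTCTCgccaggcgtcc
RPS27: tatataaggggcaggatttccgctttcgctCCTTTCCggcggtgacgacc

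RPS27L, the paralog of RPS27, and RPS29, the member that varied most between libraries, have no tract at the start that RefSeq gives, at chr15:63157458-63157507 (minus) and chr14:49598691-49598740 (minus).
RPS27L: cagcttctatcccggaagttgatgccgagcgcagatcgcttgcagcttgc
RPS29: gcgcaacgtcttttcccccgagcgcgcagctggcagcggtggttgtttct

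In the window of 250 bases before to 50 bases after the start, read on both strands, the word TCTCGCGA occurred in 12 of 63 members (19%) and in 1.37% of all genes with an entry. CCGGAAGT, the core to which ETS factors such as GABPA bind, occurred in 15.9% of members and 4.95% of all. AAGATGGC, the core of the YY1 motif, occurred in 9.52% and 3.52%, and TATAAA in 7.94% and 14%. These are matches of letters only, and their part in any change was not tested.

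Levels are CPM after TMM scaling over the 12 libraries, and levels of different genes were compared per kilobase of each gene's principal transcript. The median member stood at 510 CPM per kilobase in control, and 58 of the 81 lay between 200 and 1000. Among the highest were RPS29 at 1803, RPL19 at 1433, RPL26 at 1324 and RPL13A at 1262 CPM per kilobase. The RPS29 value averages control libraries that differed widely, at 891, 820, 211 and 213 CPM. The order near the top depends on which length is used: per kilobase of all annotated exons RPL13A came first, at 629. At the low end were RPL21 at 38.7, RPS26 at 27.5, RPL39L at 25.6 and RPS27L at 19.4 CPM per kilobase. This order too depends on the length, as the principal transcript of RPS27L has 6434 bases. The level of RPL21 is also uncertain because of its pseudogenes, as described further on. In plain CPM RPS27L averaged 125 in control, above RPL41 at 116, which stood at 248 CPM per kilobase.

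The paralogs RPL3L, a striated muscle form of RPL3, and RPS10L stood at 0.0902 and 0.281 CPM per kilobase in control. In plain CPM they averaged 0.197 and 0.149, where 3 counts correspond to 0.0565 to 0.0781 CPM in the control libraries. RPL39L, a form of the exit tunnel protein RPL39 that is enriched in testis, averaged 19.3 ± 0.686 CPM (SD, n = 4) in control, beside 339 ± 12.4 CPM for RPL39. Between libraries of 1 group, members were stable: the median coefficient of variation was 3.26% in control, 4.07% with TGF-β1 and 4.54% with TGF-β1 plus acetate.

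The first comparison asks how the set moved with TGF-β1. Of 79 members tested with edgeR, 69 rose, 1 fell and 9 were not called, where 34.1% of the 22051 tested genes rose and 32.8% fell. The rises were small: the median log2 fold change of the members was 0.26, against 0.02 for all tested genes, and no member was called at 2-fold or more. In 65 members every TGF-β1 library lay above every control library (30.9% of all genes), and in 1, RPL39L, every TGF-β1 library lay below (30.3%). Both subunits moved alike in count, with 42 of 47 large subunit members and 27 of 32 small subunit members higher, at medians of 0.26 and 0.27. Libraries are bulk samples, so fewer cells of a kind and less RNA per cell cannot be told apart.

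RPL28, a large subunit protein that bacteria lack, rose most. It stood at 237, 248, 242 and 256 CPM in the control libraries, and at 465, 490, 493 and 483 CPM with TGF-β1. The log2 fold change was 0.98 ± 0.04 (SE, edgeR adjusted p = 2.6e-13), and every TGF-β1 library was well above every control library. RPL24, which forms a bridge to the small subunit, went from 304, 299, 307 and 309 to 473, 496, 483 and 506 CPM (0.69 ± 0.03, edgeR adjusted p = 1.1e-11). RPL27A rose from 487 ± 12.3 to 744 ± 18.2 CPM (SD, n = 4 each), and RPL7A, a host of several small nucleolar RNAs, from 719 ± 15.5 to 1076 ± 41.9 CPM. For these 3 genes the lowest TGF-β1 library was above the highest control library.

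RPS27L, a paralog of RPS27, had the largest rise of the small subunit members. Its levels were 127, 126, 127 and 119 CPM in control and 196, 218, 214 and 208 CPM with TGF-β1, a log2 fold change of 0.75 ± 0.04 (edgeR adjusted p = 4e-11). Its common counterpart RPS27 rose less, from 395 ± 6.70 to 506 ± 11.3 CPM (log2 fold change 0.36). The difference between the 2 paralogs was not tested as such, but RPS27L departed upward from the members' sum, as described further on.

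RPL39L was the 1 member that fell. Its levels were 18.6, 19.9, 19.9 and 18.9 CPM in control and 12.2, 14.8, 15.4 and 15.03 CPM with TGF-β1 (log2 fold change -0.42 ± 0.07, edgeR adjusted p = 2.5e-05). All TGF-β1 libraries were below all control libraries, while the common form RPL39 rose from 339 ± 12.4 to 454 ± 9.79 CPM (log2 fold change 0.43).

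The 9 members not called were RPL8, RPL12, RPL21, RPL36, RPS21, RPS26, RPS27A, RPS28 and RPS29. RPL8, which lies next to the peptidyl transferase centre, stood at 826 ± 23.9 CPM in control and 831 ± 36.6 CPM with TGF-β1 (log2 fold change 0.01 ± 0.04). RPL12, at the base of the stalk, and RPL36 had log2 fold changes of 0.05 each. RPS26 and RPL21 carried wide errors of 0.19 on the log2 scale, and RPS29 one of 0.41.

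The acidic stalk, which RPLP0, RPLP1 and RPLP2 form and which recruits elongation factors, rose with the rest. RPLP0 went from 1440, 1512, 1495 and 1590 CPM to 1645, 1816, 1786 and 1820 CPM, a log2 fold change of 0.23 ± 0.04 (edgeR adjusted p = 6.2e-05). RPLP1 and RPLP2 had log2 fold changes of 0.20 and 0.24. RPL5 and RPL11, which together with 5S rRNA form the particle that can bind MDM2, rose by 0.30 and 0.41 on the log2 scale. RPS6, the substrate of the S6 kinases, rose from 991 ± 33.97 to 1136 ± 32.1 CPM (log2 fold change 0.20), and RPS19, a gene mutated in Diamond-Blackfan anaemia, from 1058 ± 44.2 to 1360 ± 112 CPM (0.37).

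**Figure D1:**
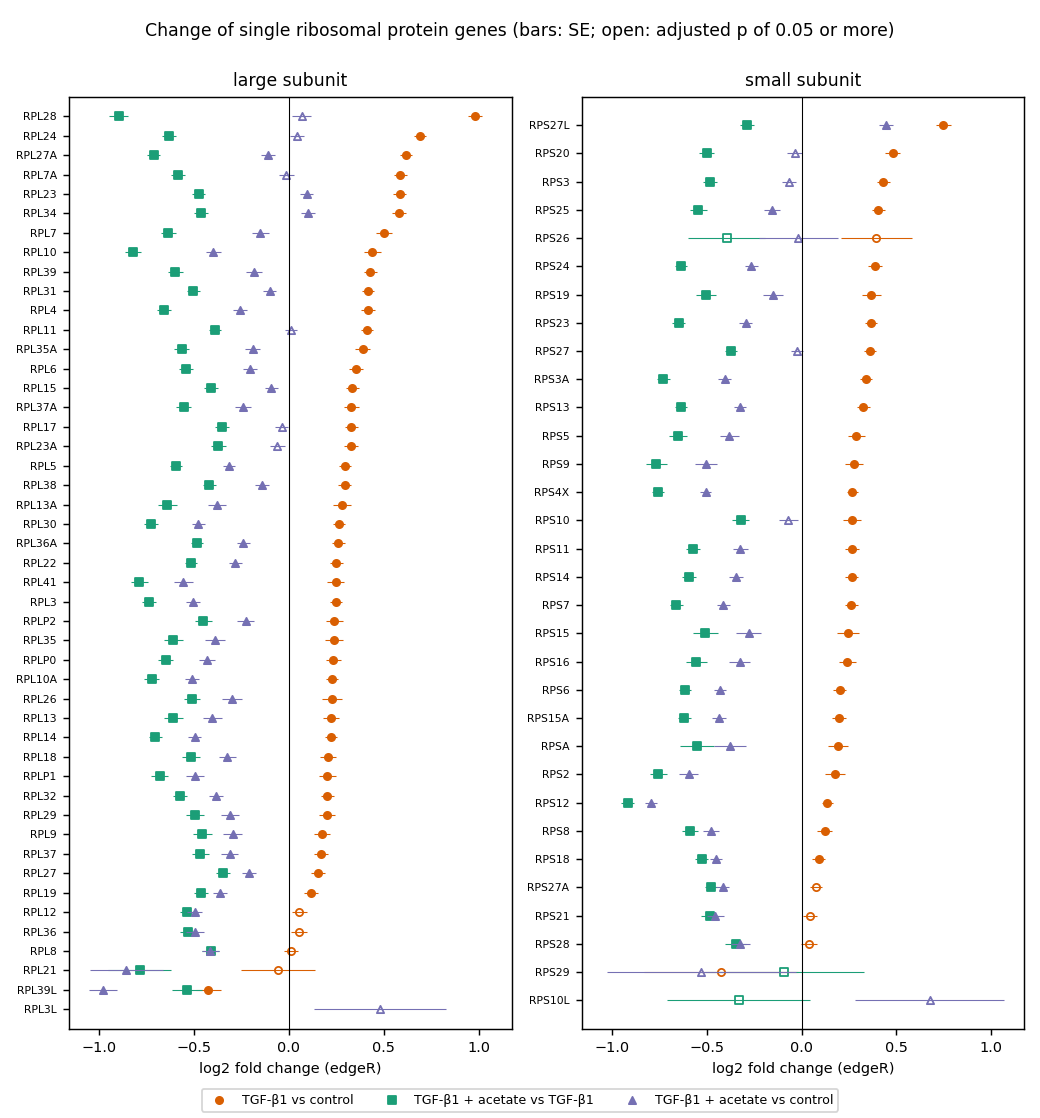
Log2 fold change (x axis, edgeR, bars show the SE) of large subunit members (left) and small subunit members (right) in 3 comparisons; open symbols mark an adjusted p of 0.05 or more. Circles (TGF-β1 against control) lie mostly right of 0 with RPL28 at 0.98 at the top and RPL39L at -0.42, and squares (acetate added) lie left of 0.

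The second comparison asks what adding acetate to TGF-β1 did, and it shares the 4 TGF-β1 libraries with the first, so the directions of both are not independent. Of 80 members tested, 77 fell and 0 rose, where 30.4% of 22336 tested genes fell and 33.3% rose. The members not called were RPS26, RPS29 and RPS10L. At an unadjusted p below 0.05, 0 members were higher with edgeR and 0 with DESeq2. The median log2 fold change was -0.55, against 0.03 for all tested genes, and again no member reached 2-fold. In 77 members every library with acetate lay below every TGF-β1 library (28.2% of all genes). All 47 large subunit members tested fell (median -0.56), as did 30 of 33 small subunit members (median -0.55).

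RPS12, a small subunit protein, fell most. It stood at 438, 464, 449 and 448 CPM with TGF-β1 and at 236, 242, 241 and 227 CPM with acetate added, a log2 fold change of -0.92 ± 0.03 (edgeR adjusted p = 3.8e-12). Control libraries stood at 407 to 415 CPM, so the level with acetate was also below control. RPL28, which had risen most with TGF-β1, had the next largest fall, from 483 ± 12.7 to 257 ± 21.97 CPM (-0.90 ± 0.05).

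RPL10, which is added late to the large subunit and lines its tRNA sites, stood at 975, 1115, 979 and 1085 CPM with TGF-β1. With acetate it stood at 594, 572, 597 and 570 CPM (log2 fold change -0.82 ± 0.04, edgeR adjusted p = 1.7e-10). RPL41, the smallest ribosomal protein, fell from 138 ± 4.07 to 79.1 ± 4.80 CPM (-0.79). The groups of both genes did not overlap.

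The smallest called fall was that of RPS27L, from 196, 218, 214 and 208 CPM to 166, 176, 168 and 169 CPM (log2 fold change -0.29 ± 0.04, edgeR adjusted p = 6.5e-06). Its libraries with acetate remained above every control library, and it was the 1 member of which this held. The stalk genes RPLP0, RPLP1 and RPLP2 fell by 0.65, 0.68 and 0.45 on the log2 scale. RPL5 and RPL11 fell by 0.60 and 0.39, RPS6 by 0.62, RPS3, which sits at the messenger RNA entry channel, by 0.48, and RPL22 by 0.52. RPSA, the laminin receptor precursor, varied more with acetate, at 486, 462, 565 and 377 CPM, and fell by 0.55 ± 0.09.

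**Figure D2:**
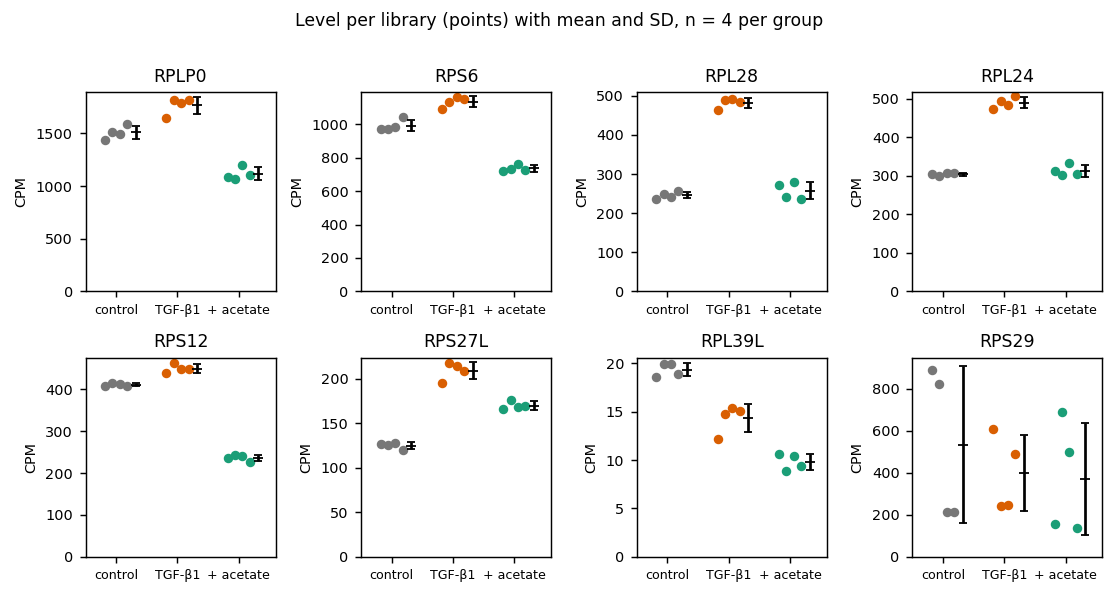
Level in CPM (y axis, from 0) of 8 members in the 12 libraries, with each library as a point and the mean and SD (n = 4) as a black bar. RPLP0, RPS6 and RPS12 are lowest with acetate, RPL28 and RPL24 with acetate overlap with control, RPS27L stays above control, RPL39L falls at both steps, and RPS29 is scattered in every group.

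The third comparison sets TGF-β1 plus acetate against control, in a fit of the 23771 genes that both tables hold. Of 81 members tested, 64 were lower, 3 higher and 14 not called, where 34.4% of 22742 tested genes were lower and 36.1% higher. The median log2 fold change was -0.32, against 0.02 for all tested genes. In 59 members the acetate libraries lay below every control library (31.6% of all genes), and in 1, RPS27L, above (32.4%). By subunit, 39 of 48 large and 25 of 33 small subunit members were lower, at medians of -0.30 and -0.33.

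RPL39L was the furthest below control. It stood at 10.6, 8.89, 10.4 and 9.36 CPM with acetate against 18.6 to 19.9 CPM in control, a log2 fold change of -0.98 ± 0.07 (edgeR adjusted p = 3.6e-10). It fell in each of the 3 comparisons. RPL21 followed at -0.86 ± 0.19, then RPS12 at -0.80 ± 0.03, RPS2 at -0.60 ± 0.05 and RPL41 at -0.56 ± 0.05. The levels of RPL21 and RPS2, and so their places in this order, are uncertain because of their pseudogenes, as described further on.

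The 3 members above control were RPS27L, at 170 ± 4.59 against 125 ± 3.72 CPM (log2 fold change 0.44 ± 0.04, edgeR adjusted p = 3.6e-09), RPL34 (0.10 ± 0.04) and RPL23 (0.09 ± 0.03). The calls for RPL34 and RPL23 were lost with DESeq2, with its size factors, and without any 1 of the libraries S1, S2, S23 or S24, and RPL34 also without S4. RPL28, RPL24 and RPL7A, the strong risers with TGF-β1, were not called against control, at log2 fold changes of 0.07, 0.04 and -0.01. Their SEs were 0.05, 0.04 and 0.04.

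**Figure D3:**
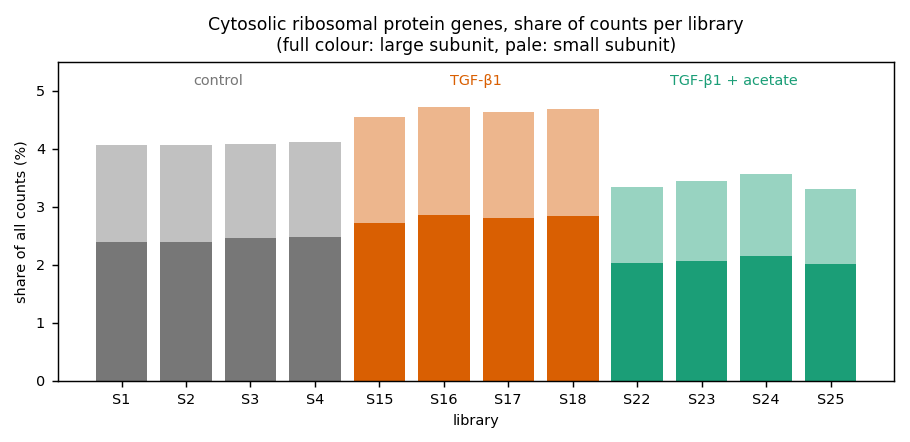
Share of all gene counts (y axis, %) taken by large subunit (full colour) and small subunit members (pale) in each library. The summed share lies between 4.06% and 4.12% in control, 4.55% and 4.71% with TGF-β1, and 3.31% and 3.57% with TGF-β1 plus acetate, with no overlap between groups.

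To see which members moved more or less than the set, the fits were repeated with each library scaled to its summed member counts. A positive departure then means a rise relative to the members as a whole. With TGF-β1, 19 of 79 members departed upward and 20 downward (18% and 52.9% of all genes). The largest upward departures were RPL28 at 0.69, RPS27L at 0.46 and RPL24 at 0.40 on the log2 scale, and the largest downward ones RPL39L at -0.72, RPL8 at -0.28 and RPS28 at -0.25. Because the scaling centres the members, a balance of upward and downward departures is built in, and scaled to the small subunit sum the downward count was 12.

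With acetate added to TGF-β1, 21 of 80 members departed upward and 17 downward (77.5% and 3.74% of all genes). RPS27L at 0.29, RPS10 at 0.25 and RPL27 at 0.23 led upward, and RPS12 at -0.34, RPL28 at -0.32 and RPL10 at -0.25 led downward. Against control, 26 of 81 departed upward and 28 downward (54% and 18.3% of all genes). The largest called departures there were RPS10L at 0.97, from a level of about 0.2 CPM, RPS27L at 0.75 and RPL34 at 0.40, and in the other direction RPL39L at -0.68, RPL21 at -0.56 and RPS12 at -0.49. The value of RPL21 is uncertain because of its pseudogenes. RPS27L departed upward in all 3 comparisons, which share libraries.

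Large and small subunit genes were also compared through their summed counts. The ratio of large to small subunit counts was 1.44, 1.44, 1.52 and 1.502 in control, 1.49, 1.55, 1.54 and 1.54 with TGF-β1, and 1.55, 1.47, 1.51 and 1.56 with acetate added. The groups overlapped. Most of the spread within groups went with 1 gene: without RPS29 the ratio was 1.52 ± 0.01 for control libraries, 1.56 ± 0.02 for TGF-β1 and 1.57 ± 0.01 for TGF-β1 plus acetate (SD, n = 4 each), and every library of the latter 2 groups was then above every control library. Leaving out RPS29 was chosen after its values were seen.

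**Figure D4:**
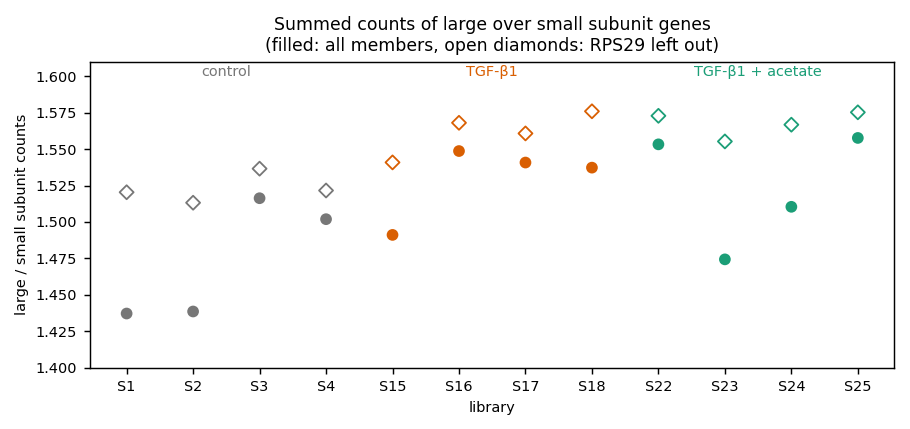
Summed counts of large subunit genes over those of small subunit genes (y axis, which starts at 1.4) in each library, for all members (filled) and without RPS29 (open diamonds). With RPS29 the groups overlap; without it the control libraries lie between 1.51 and 1.54 and the other 8 between 1.54 and 1.58.

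RPS29, a zinc-binding protein of the small subunit head, was the least stable member. It stood at 891, 820, 211 and 213 CPM in control, 606, 243, 248 and 489 CPM with TGF-β1, and 157, 687, 498 and 138 CPM with TGF-β1 plus acetate. Each group held both high and low libraries, and no comparison was called (edgeR adjusted p between 0.35 and 0.86). Its SD around the group means was 1.03 on the log2 scale, where the median member had 0.06. Among the 6732 genes at 30 CPM or more, 2 had a larger SD, SNORD3B-1 and RN7SL5P, both small RNA genes.

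The RPS29 gene as annotated in the files spans chr14:49570984-49599164 on the minus strand (hg38), and RN7SL1, the RNA of the signal recognition particle, lies within it on the plus strand at chr14:49586580-49586878. RN7SL1 stood at 10740, 15170, 11500 and 11590 CPM in the control libraries S1 to S4, at 10520, 12640, 12100 and 13510 CPM in S15 to S18, and at 8229, 8303, 9123 and 7811 CPM in S22 to S25. Its SD around the group means was 0.16 on the log2 scale. Whether reads of another transcript enter the RPS29 counts was not tested.

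Several members share sequence with processed pseudogenes, intronless copies elsewhere in the genome, and reads of near-identical copies cannot be placed with certainty. The tables held 196 and 201 pseudogene rows of members, whose counts came to 3.86% to 4.38% of the members' own. For RPL21 they were 407% of the gene's own counts, for RPS28 69.1%, for RPL9 44.4%, for RPSA 43.4% and for RPS2 36.4%, so the levels of these 5 are uncertain. With pseudogene counts added, RPL21 was higher with TGF-β1 (log2 fold change 0.26, edgeR adjusted p = 3.9e-05), where its own row gave -0.06. Adding them left the 77 falls with acetate in place.

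Rows of readthrough transcripts that join a member to its neighbour held nearly the same counts as the member: RPL17-C18orf32 had 104%, RPL36A-HNRNPH2 103.4% and RPS10-NUDT3 101.6%. Reads in overlapping genes were therefore counted in each row. The values of RPL17, RPL36A and RPS10 cannot be separated from those of these rows.

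Of the members, 28 hold genes of small nucleolar RNAs, which guide the modification of ribosomal RNA and are released from the introns of their hosts. Of 60 such genes tested with TGF-β1, 12 rose and 0 fell (34.1% and 32.8% of all genes), at a median log2 fold change of 0.14. With acetate added, 35 of 59 fell and 0 rose (30.4% and 33.3% of all genes), at a median of -0.53. SNORD35A, inside RPL13A, averaged 3.79 ± 0.223 CPM (SD, n = 4) in the control libraries, 5.17 ± 0.383 CPM after TGF-β1 and 2.70 ± 0.460 CPM once acetate was added. SNORA70, inside RPL10, stood at 26.7 ± 1.42, 31.5 ± 3.08 and 17.6 ± 4.61 CPM. None was called against the direction of most hosts in either comparison, and 48 of the 60 were not called with TGF-β1. Because reads in overlapping genes were counted in each row, host reads can enter the rows of these small nucleolar RNAs. Their shared direction may be partly built in, which was not tested. The hosts themselves had medians of 0.29 and -0.60 in the same comparisons, beside 0.26 and -0.52 for members that hold none.

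Members with and without a tract at the start that RefSeq gives moved by similar amounts with TGF-β1. A start annotated a few bases away would hide a tract, and the part of tracts in the change was not tested. The 46 with a C and at least 4 more pyrimidines at the start had a median log2 fold change of 0.27, with 41 higher, and the 17 with an entry and no such tract 0.25, with 14 higher. With acetate added, the medians were -0.56 with 46 of 46 lower, and -0.46 with 15 of 17 lower. Among genes that are no members, a tract came with 41.3% higher with TGF-β1 against 37% without, and with 42.2% lower with acetate against 34.2% without. The medians of these other genes with a tract were 0.03 and -0.05.

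Other messages known to carry TOP tracts, chiefly translation factors, moved like the ribosomal proteins in count. Of 20 tested, 18 rose and 1 fell with TGF-β1 (34.1% and 32.8% of all genes, list median 0.24), and 20 fell with acetate added (30.4% of all genes, list median -0.51). NAP1L1, a histone chaperone, moved most: 655, 598, 624 and 610 CPM in control, 1482, 1415, 1430 and 1492 with TGF-β1, and 685, 695, 676 and 708 with acetate added (log2 fold changes 1.23 and -1.07). EEF1A1, which brings aminoacyl-tRNA to the ribosome, went from 4091 ± 81.0 to 4561 ± 109 and then 2825 ± 100.2 CPM, and EEF1B2, its exchange factor, from 288 ± 2.66 to 324 ± 10.4 and 174 ± 6.17 CPM. EIF3A, the largest subunit of initiation factor 3, was the 1 that fell with TGF-β1, by 0.27. Against control, 16 of the 20 were lower and 1, NAP1L1, higher (34.4% and 36.1% of all genes). FAU, which encodes a ribosomal protein fused to a ubiquitin-like domain, rose by 0.12 on the log2 scale with TGF-β1 and fell by 0.51 with acetate.

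**Figure D5:**
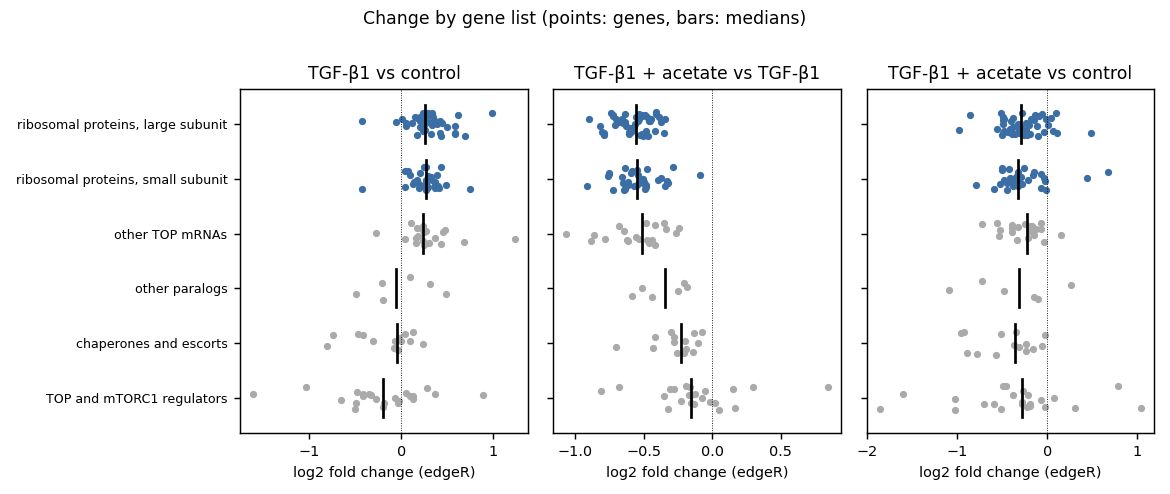
Log2 fold change (x axis, edgeR) of single genes (points) in 3 comparisons for the members of each subunit (blue) and 4 lists of related genes (grey), with medians as black bars. The members and the other TOP messages lie together, with medians of 0.24 to 0.27 and of -0.51 to -0.56 in the first 2 panels, while the paralogs, chaperones and regulators have medians of -0.20 to -0.05 in the first panel and of -0.35 to -0.15 in the second.

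Paralogs that the naming rule leaves out did not move as a block with TGF-β1, with 3 of 6 higher and 3 lower (34.1% and 32.8% of all genes), and all 6 fell with acetate (30.4% of all genes). RSL24D1, a biogenesis factor related to RPL24, fell from 243 ± 3.69 to 172 ± 10.5 and then 113 ± 4.37 CPM, whereas RPL24 had risen with TGF-β1. RPL22L1, the paralog of RPL22, stood at 112 ± 5.45, 96.6 ± 8.50 and 67.2 ± 1.15 CPM (log2 fold changes -0.20 and -0.51), beside 205 ± 5.59, 243 ± 3.60 and 168 ± 4.21 CPM for RPL22. RPL36AL rose with TGF-β1, from 107 ± 2.43 to 149 ± 2.34 CPM.

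Of 14 chaperones and import receptors that escort new ribosomal proteins, 2 rose and 5 fell with TGF-β1 (34.1% and 32.8% of all genes). RPF2, which delivers the 5S particle, fell with a log2 fold change of -0.81 and PDCD2L with -0.74. With acetate 12 of 14 fell (30.4% of all genes), led by GRWD1, the RPL3 chaperone, at -0.70. Of 23 regulators of TOP messages and mTORC1, 5 rose and 13 fell with TGF-β1 (34.1% and 32.8% of all genes), and 4 rose and 13 fell with acetate (33.3% and 30.4%). LARP1 fell from 300.2 ± 13.1 to 211 ± 7.37 CPM with TGF-β1 and stood at 199 ± 18.6 CPM with acetate, a change of -0.08 that was not called (edgeR adjusted p = 0.23). The stress-induced mTORC1 inhibitors SESN2 and DDIT4 fell with TGF-β1, by 1.61 and 1.03 on the log2 scale, and DDIT4 fell further with acetate, by 0.82.

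A list of 11 genes linked to these promoters held mostly transcription factors, and also the RNA-binding protein RBPMS. With TGF-β1, 3 rose and 4 fell, near the shares over all genes (34.1% and 32.8%). With acetate, 3 rose and 6 fell (33.3% and 30.4%). MYC stood at 176 ± 4.79, 155 ± 11.1 and 105 ± 4.65 CPM in control, TGF-β1 and TGF-β1 plus acetate. GABPB1, the partner of the ETS factor GABPA, stood at 59.2 ± 1.17, 65.9 ± 1.11 and 40.0 ± 1.62 CPM, and GABPA itself fell by 0.42 on the log2 scale with acetate. Another list held 4 genes of the stress response that free RPL5 and RPL11 can set off. Of these, 0 were higher and 2 lower with TGF-β1 (34.1% and 32.8% of all genes). With acetate, 1 was higher and 2 lower (33.3% and 30.4%). The 1 that rose with acetate was CDKN1A, a cell cycle inhibitor, from 126 ± 7.31 to 242 ± 5.46 CPM (log2 fold change 0.95), and GADD45A, another stress-induced gene, fell with acetate by 0.29 on the log2 scale. MDM2, the ligase that RPL5 and RPL11 can bind, was not called with TGF-β1 or when acetate was added, at -0.03 and -0.07, and was lower with TGF-β1 plus acetate than in control, at -0.12 (edgeR adjusted p = 0.016).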

How the data were processed

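RNA was measured as total RNA after ribosomal RNA depletion with a stranded kit and sequenced as paired reads of 75 bases, per the labels' protocols. Reads were aligned with HISAT2 to hg38 after bcl2fastq, and limma is listed too, per the submitters' processing notes, which give no versions; the counting tool is not given in the sources used here. The deposited tables hold raw counts per gene, and 32 further per-library columns were not used.

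Counts were tested with edgeR 4.0.16 in R 4.3.3 (TMM scaling, filterByExpr with a minimum count of 10 and a minimum total of 15, quasi-likelihood, two-sided, Benjamini-Hochberg over all tested genes, threshold 0.05). Comparisons within a table used that table, and acetate against control used the 12 libraries joined on shared genes. Alternatives were DESeq2 1.42.0, the size factors of DESeq2 in edgeR, limma-voom 3.58.1, library totals, no filter, pseudogene counts added and each library left out. The fit was also run on counts simulated from its own model, with few changed genes, as many up as down. Such counts cannot check the scaling where many genes change, as here. Transcript lengths are from GENCODE 29.

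Named were the 5 largest called rises and falls and 3 largest departures per comparison, the 5 highest and 5 lowest per length in control, and a list of members picked by role; in lists of other genes, at most 3 by smallest p per comparison. Genes named beyond this (single paralogs, RPL8, RPS29, uncalled members, counts of 5 or fewer, small nucleolar RNAs, LARP1, GABPA, MDM2) were chosen after their values were seen. Members and lists were chosen with earlier results of these data known. A few genes are not reported here.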

Additional observations from a re-analysis of the deposited data

Results flagged for a closer look

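Groups of 4 libraries, 126 in all, were checked over 40 members and the summed values. In 6 of them 1 library lay far from the other 3 (a gap above 0.829 of the group's range). Chance alone marks about 1 in 20 independent groups, and 6 is near that number. These groups share libraries, so they are not independent and the number decides little. In control, RPL39 had a library at 357 CPM with the next at 334, and RPS6 one at 1041 with the next at 980. With TGF-β1, RPL13A had a library at 1606 CPM below the next at 1855, RPSA one at 782 above 681, RPS26 one at 71.0 above 38.9, and RPL21 one at 45.8 above 26.0. The low RPL13A library was S15, which also had the lowest summed member share of its group, at 4.55% against 4.63% to 4.71%. The part of this in the RPL13A value was not tested. The deviating libraries of RPL21 and RPS26 belong to members with low counts per length and many near-identical copies or wide spread, and the cause was not tested.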

How the results depend on the processing

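No paired analysis was possible because the columns carry no replicate numbers that match the labels. Scaling to library totals moved the median of all genes from 0.02 to -0.09 (TGF-β1 against control) and from 0.03 to 0.16 (acetate added). Under it the member medians were 0.16 (large 0.16, small 0.16) with TGF-β1, with 2 members lower, and -0.42 (large -0.42, small -0.42) with acetate added, and 5 members were higher than control. RPL8 then fell with TGF-β1 (-0.0904, edgeR adjusted p = 0.022), and RPL21 turned to 0.26 with pseudogene counts added. Members higher with acetate numbered 1, RPL3L, in the fit of all 12 libraries, and 0 to 1 when single libraries were left out (1 without S22). Members higher than control numbered 1 with DESeq2 and with its size factors, and 1 to 3 with libraries left out. Leaving out libraries moved the large subunit median with acetate between -0.61 (without S15) and -0.54, and the small subunit median between -0.60 (without S24) and -0.55. Scaled to the small subunit sum, 12 members departed downward with TGF-β1. The member share without small RNAs in the total was 4.49%, 5.09% and 3.67% (control, TGF-β1, acetate added), and with pseudogenes 4.25%, 4.84% and 3.56%. The ratio of large to small subunit counts was 1.14, 1.20 and 1.18 per kilobase, and 1.52, 1.56 and 1.57 without RPS29. The causes were not tested. The other 257 values of this kind kept their direction and size, and of single genes 2051 kept their call, 34 lost it and 22 gained it.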
